A study of Homo sapiens with 9 samples.

Results

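Eicosanoids are signalling lipids made from arachidonate. Cyclooxygenases, the products of PTGS1 and PTGS2, begin the branch that leads to prostaglandins and thromboxane, and prostaglandin E acts on cells through receptors that include those encoded by PTGER2 and PTGER4, both of which raise cyclic AMP through the stimulatory G protein. Lipoxygenases begin the other branch: ALOX5 works with its partner ALOX5AP to make leukotriene A, which LTA4H converts to leukotriene B and LTC4S joins to glutathione, while ALOX12 is the platelet-type lipoxygenase. Myeloid cells are among the main producers of leukotrienes, and prostaglandin E is known to act on haematopoietic progenitors.

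The genes described here are PTGER2, PTGER4, PTGS1, PTGS2, ALOX5, ALOX5AP, LTA4H, LTC4S, ALOX12 and ALOX12P2, a pseudogene related to ALOX12. They are 10 of the 25680 gene symbols in the count tables, and were found by symbol, each represented by the RefSeq transcript with the highest total count. All 10 were among the 14199 genes that passed the filter on low counts. ALOX12P2 passed it through the control libraries, since it had 10 or more counts in 3 of 3 of these but in 1 SH2 and 1 SH3 library. PTGER4 and ALOX12P2 head the set because they had been selected on their fold changes between EV, SH2 and SH3 in an earlier analysis of the same libraries, so their differences between these groups are a description and no independent evidence.

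Messenger RNA was sequenced from SKNO-1, a human acute myeloid leukaemia cell line with the RUNX1-RUNX1T1 fusion, which the labels write as AML-ETO. There were 3 groups of 3 libraries, and all 9 carry the fusion: EV, the control, and SH2 and SH3, each with a different shRNA against ASXL2, a chromatin regulator. The labels do not explain EV, and the study describes its control as a control shRNA. The labels number the libraries of each group 1, 13 and 25 without saying what the numbers stand for, and their extraction text describes sorted bone marrow cells rather than the line. The study calls the replicates biological, but all come from 1 cell line, so the spread is that between cultures of 1 line. In bulk RNA, fewer cells that express a gene and less RNA per cell cannot be told apart.

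Each library held 27714431 to 35406063 counts with 1 transcript per gene, so that 3 counts, the limit that a count of 0 allows, corresponded to 0.0847 to 0.108 CPM (counts per 1000000 counts, scaled by TMM in all levels below but not in this limit). This limit covers counting error only. ASXL2 was at 67.9 to 74.7 CPM in EV, 30.4 to 36.2 in SH2 and 26.9 to 41.1 in SH3. Genes listed as markers of other blood cells were expressed to very different degrees. In a culture of 1 line this need not mean that such cells were present. The neutrophil list of 5 genes summed to 7922 to 10011 CPM in EV, 7067 to 11002 in SH2 and 7752 to 10260 in SH3, although LTF had no counts in any library. The 7 platelet and megakaryocyte genes summed to 101 to 114, 61.1 to 75.3 and 67.2 to 151 CPM, most of it ITGA2B and with PF4 at 0, and the 6 mast cell and basophil genes, none at 0, to 237 to 240, 184 to 209 and 174 to 267 CPM. The 4 monocyte genes, none at 0, summed to 52.2 to 80.9 CPM over the 9 libraries, the 3 B cell genes, with MS4A1 at 0, to 1.70 to 3.34 CPM, and the 3 T cell genes, with CD3E at 0, to at most 0.173 CPM. The SKNO-1 identity genes RUNX1, RUNX1T1, KIT and CD34 summed to 630 to 858 CPM, although CD34 itself was below the filter. Libraries with the same number resembled each other across groups. With edgeR's quasi-likelihood test and no term for the number, 0 genes passed an adjusted p of 0.05 in any contrast of the knockdown groups, where 942 genes had an unadjusted p under 0.05 for both shRNAs averaged and DESeq2 called 56. Once the number entered as a block, 156 genes passed in edgeR for both shRNAs averaged, 40 for SH2, 59 for SH3 and 15 for SH3 against SH2. Of the 10 genes, 3, 2, 3 and 2 had an unadjusted p under 0.05 without the block in these contrasts, beside 6.63%, 5.37%, 5.09% and 2.06% of all tested genes. These counts include ALOX12P2 in every contrast with EV, and PTGER4 in SH2 and in SH3 against SH2. Both had been chosen on these groups, so the counts are no independent evidence about the set. The SH3 library numbered 1 stood apart in several of the genes below, and without it the block called 1755 genes for both shRNAs averaged.

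The sequences just before the starts of PTGER4 and PTGER2 are shown because both encode receptors for the same ligand. RefSeq gives the 250 bases before the start of PTGER4 at chr5:40679665-40679914 and of PTGER2 at chr14:52314062-52314311, both on the plus strand of GRCh38.p14. Capitals mark matches, on either strand, to CCAAT (the CCAAT box), TGACG (the core of the site bound by cyclic AMP response factors), TGTGGT (a RUNX site) or TATAAA (the TATA box), none of which overlapped another.
PTGER4: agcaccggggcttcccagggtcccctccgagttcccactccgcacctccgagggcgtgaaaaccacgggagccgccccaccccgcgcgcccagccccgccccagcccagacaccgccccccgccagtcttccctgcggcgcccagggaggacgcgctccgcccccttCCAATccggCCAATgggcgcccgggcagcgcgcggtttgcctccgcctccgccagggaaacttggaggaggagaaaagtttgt
PTGER2: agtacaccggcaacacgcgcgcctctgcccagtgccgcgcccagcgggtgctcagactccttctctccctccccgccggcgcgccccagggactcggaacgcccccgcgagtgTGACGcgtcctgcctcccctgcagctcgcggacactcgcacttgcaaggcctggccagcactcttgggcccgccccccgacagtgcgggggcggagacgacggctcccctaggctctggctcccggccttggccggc

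Both stretches were rich in G and C, 72.8% in PTGER4 and 74.0% in PTGER2, against a mean of 57.2% over 35116 RefSeq promoters. PTGER4 held 2 CCAAT boxes, starting 83 and 74 bases before the start, and PTGER2 held 1 TGACG, 137 bases before it. CCAAT occurred in 32.0% of all promoters of this length and TGACG in 21.2%. The RUNX letters TGTGGT, found in 11.0% of all promoters, occurred in the window of 1 gene of the set, LTC4S, 67 bases before its start, and TATAAA, found in 10.7%, occurred in PTGS2 and in the upstream of the 2 windows of PTGS1. In all, 8 of the 10 genes had a promoter entry, and those without were ALOX5 and ALOX12P2.

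PTGER4, the prostaglandin E receptor that is also called EP4, was lower in SH2 and on average close to its control level in SH3. This protein-coding gene occupies bases 40680017 to 40693837 of chromosome 5 in GRCh37, plus strand. Its level was 49.2, 43.98 and 37.2 CPM in the EV libraries numbered 1, 13 and 25. It was 37.4, 26.1 and 23.4 CPM in SH2, and 56.2, 38.1 and 34.9 CPM in SH3. In every group the order of the libraries was 1, 13 and 25 from high to low, and every SH2 library was below both the EV and the SH3 library of its number, although the ranges of the groups overlapped. As a share of the EV library with the same number, SH2 stood at 66.1% ± 8.86 and SH3 at 98.2% ± 14.4 (SD, n = 3). The SH3 libraries 1, 13 and 25 stood at 114%, 86.6% and 93.6%, so that only the library numbered 1 was above its control.

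In the fit without the number, the log2 fold change of PTGER4 was -0.59 ± 0.22 (SE) for SH2, -0.01 ± 0.22 for SH3, and -0.30 ± 0.19 for both averaged, and none passed (edgeR adjusted p 0.872, 0.998 and 0.858). With the number as a block, PTGER4 was the 1 member among the 0.183% of genes that fell in SH2, with a log2 fold change of -0.61 ± 0.09 (edgeR adjusted p 0.0428), and the difference between SH3 and SH2, 0.57 ± 0.09, was among the 0.0634% of genes higher in that contrast (edgeR adjusted p 0.0476). For SH3 the blocked value was -0.04 ± 0.09 (edgeR adjusted p 0.850). In that contrast 0 of the 10 genes passed, beside 0.416% of all tested genes. Of the 10, 3 had an unadjusted p under 0.05, the chosen ALOX12P2 among them, beside 18.7% of all tested genes. Both calls of PTGER4 were at the threshold. Correcting the blocked fit for the length and GC content of transcripts gave an adjusted p of 0.0695 for SH2 and 0.0533 for the difference, at log2 values of -0.60 and 0.57. When 1 library was left out of the blocked fit, SH2 against EV passed in 3 of 9 cases, with log2 fold changes from -0.72 to -0.52. It did not pass without the EV libraries 13 or 25, without any of the SH2 libraries, or without the SH3 library 25. For both shRNAs averaged the blocked value of PTGER4 was -0.32 ± 0.07 (edgeR adjusted p 0.0676). That contrast passed in 1 of the 9 fits that left out a library (edgeR adjusted p 0.0065). This was the fit without the SH3 library 1, which called 1755 genes. The list of 7 platelet and megakaryocyte genes summed to 101 to 114 CPM in EV, 61.1 to 75.3 in SH2 and 67.2 to 151 in SH3. The mast cell list summed to 237 to 240, 184 to 209 and 174 to 267 CPM. Of the 3 tested genes of the platelet list and the 5 of the mast cell list, 0 were called for both shRNAs averaged in either edgeR fit. In the blocked averaged contrast 1 of the 4 tested genes of the neutrophil list was called, and 0 without the block. Among all tested genes 0.254% were called higher and 0.845% lower in that blocked contrast. The part of these markers in the level of PTGER4 was not tested.

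TTC33, a protein-coding gene of the opposite strand whose span of 40512435 to 40756065 on chromosome 5 contains PTGER4, was measured as well, because the libraries were unstranded. No stretch of 50 bases of the PTGER4 transcript was found in a TTC33 transcript, and 0.562% of its stretches also occurred in annotated PTGER4 pseudogenes. TTC33 was at 26.3, 17.3 and 19.3 CPM in EV, 25.4, 17.3 and 18.2 in SH2 and 37.4, 17.8 and 20.6 in SH3. Its blocked log2 fold change was -0.04 ± 0.11 for SH2 and 0.23 ± 0.11 for SH3 (edgeR adjusted p 0.851 and 0.278). The nearest tested genes on either side were DAB2, with a blocked log2 fold change for both shRNAs averaged of -0.29 (edgeR adjusted p 0.149), and PRKAA1, a catalytic subunit of the AMP-activated kinase, at -0.12 (edgeR adjusted p 0.270). The genes whose log2 CPM followed PTGER4 most closely over the 9 libraries were PRKCQ, a protein kinase C, with Pearson's r of 0.974, LITAF at 0.971 and MFAP3 at 0.970. These r values describe 9 libraries that share groups, numbers and depth.

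PTGER2, the receptor also called EP2, was at a lower level per kilobase than PTGER4 and was not called in any knockdown contrast of either edgeR fit. Its level was 9.21, 6.77 and 5.90 CPM in EV, 8.61, 6.52 and 4.64 in SH2, and 9.33, 7.53 and 6.59 in SH3. The ranges of the 3 groups overlapped, in each the library numbered 1 was the highest, and within each number SH2 was lowest and SH3 highest. SH3 exceeded SH2 by 0.27 ± 0.12 on the log2 scale in the blocked fit (edgeR unadjusted p 0.0471 and adjusted p 0.414) and by 0.25 ± 0.26 without the block (edgeR adjusted p 0.998). Averaging both shRNAs gave a log2 fold change of -0.02 ± 0.22 (edgeR adjusted p 0.995), and of -0.02 ± 0.10 in the blocked fit (edgeR adjusted p 0.914). The SH2 libraries stood at 89.5% ± 9.44 of the EV library with the same number and the SH3 libraries at 108% ± 5.90 (SD, n = 3).

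**Figure D1:**
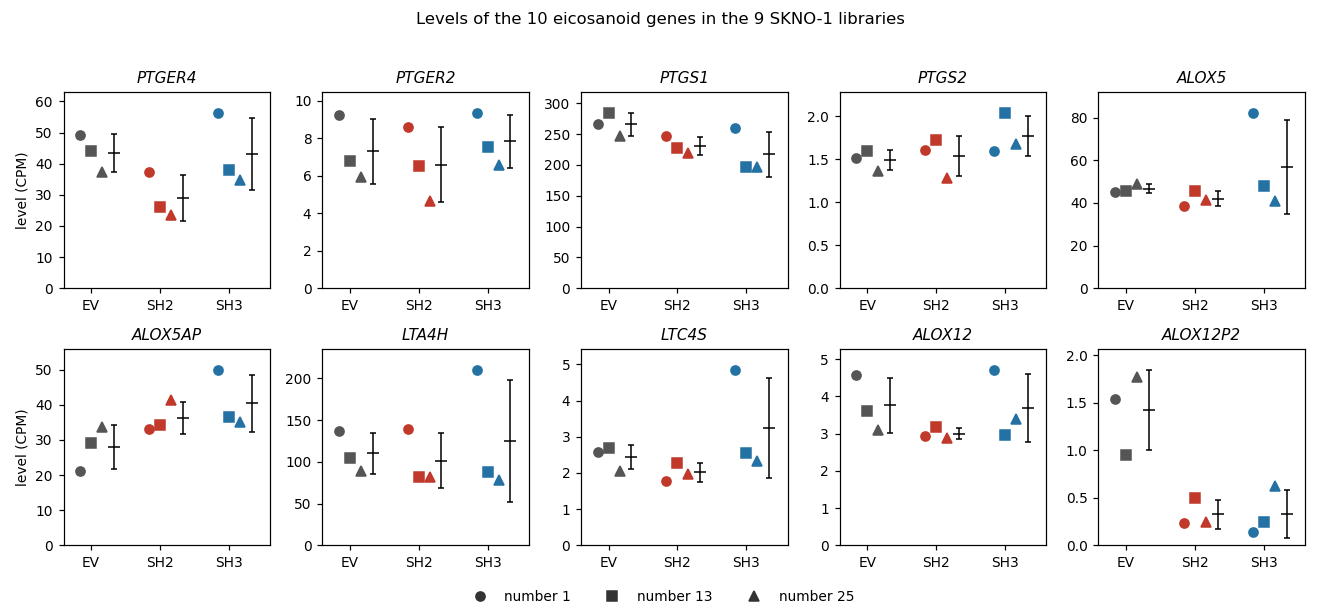
Level in CPM, on a linear axis from 0 for each gene, of the 10 genes in the EV, SH2 and SH3 libraries, with the symbol for the replicate number and bars for the mean ± SD (n = 3). ALOX12P2 is the gene whose 6 knockdown libraries, at 0.136 to 0.619 CPM, all lay below its EV libraries. The SH3 library numbered 1 is the highest point for PTGER4, ALOX5, ALOX5AP, LTA4H and LTC4S and, by a narrow margin, for PTGER2 and ALOX12.

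ALOX12P2 was at 23.3% of its control level over both shRNAs in the blocked fit, at very low counts. The annotation places a transcribed unprocessed pseudogene of this name on chromosome 17 at 6797101 to 6803351, plus strand (GRCh37), inside a long non-coding RNA of the same name at 6757180 to 6857426. Its counts were 56, 28 and 53 in the EV libraries 1, 13 and 25, 7, 16 and 7 in SH2, and 4, 8 and 17 in SH3. In CPM these were 1.54, 0.952 and 1.77 in EV, 0.234, 0.501 and 0.243 in SH2, and 0.136, 0.247 and 0.619 in SH3. All 6 knockdown libraries were below all 3 EV libraries, which held for 2.61% of the tested genes, and ALOX12P2 was the only 1 of the 10 genes for which it did. The reverse, all 6 above all 3, held for 0 of the 10 and for 2.16% of the tested genes.

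In log2 fold change ALOX12P2 was at -2.10 ± 0.51 for SH2, -2.10 ± 0.51 for SH3 and -2.10 ± 0.42 for both averaged without the number (edgeR adjusted p 0.808, 0.930 and 0.623). With the block, it was the 1 member among the 0.845% of genes that fell for both shRNAs averaged, at -2.10 ± 0.35 (edgeR adjusted p 0.0377), and was not called for SH2 or SH3 alone (edgeR adjusted p 0.0738 and 0.0623). Correcting for length and GC content gave -2.15 (edgeR adjusted p 0.0608). Leaving out 1 library at a time, it passed in 4 of 9 blocked fits, with values from -2.46 to -1.72, and not without the EV libraries 1, 13 or 25 or the SH2 libraries 1 or 25. ALOX12P2 reached the filter through EV and had been chosen on its fold changes between these groups, so this value carries no weight of its own. SH3 and SH2 differed by 0.00 ± 0.59 in ALOX12P2, and at 4 to 17 counts a moderate difference between the shRNAs was not detectable.

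Because ALOX12P2 arose from a lipoxygenase gene, the transcripts ENST00000570921 of ALOX12P2 and ENST00000251535 of ALOX12 were compared to see whether reads could be exchanged between them. The most alike stretches of 100 bases, without gaps, were bases 1540 to 1639 of the first and 1638 to 1737 of the second, and are printed with the 18 differences in capitals.
ALOX12P2: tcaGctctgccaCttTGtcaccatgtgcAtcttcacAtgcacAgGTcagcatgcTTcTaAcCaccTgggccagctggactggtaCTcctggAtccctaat
ALOX12: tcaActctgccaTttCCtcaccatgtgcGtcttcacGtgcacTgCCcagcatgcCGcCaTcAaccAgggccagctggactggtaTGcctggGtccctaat

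The longest run that both transcripts shared was 21 bases, and none of the 1896 stretches of 50 bases of ENST00000570921 occurred in the transcripts of another gene on either strand. The RefSeq transcript that was counted and the longer non-coding RNA of the same name were not compared. ALOX12, 96017 bases further along chromosome 17 at 6899368 to 6914073, was at 4.57, 3.61 and 3.10 CPM in EV, 2.95, 3.17 and 2.88 in SH2, and 4.70, 2.96 and 3.39 in SH3. These groups overlapped, and ALOX12 in the averaged contrast was at a log2 fold change of -0.18 ± 0.20 (edgeR adjusted p 0.948), or -0.17 ± 0.15 with the block (edgeR adjusted p 0.542). ALOX12-AS1, a long non-coding RNA of the opposite strand that spans both genes and appears in the tables as LOC100506713, shared 13.0% of the stretches of 50 bases of ALOX12, so that part of the ALOX12 count cannot be assigned to a strand. LOC100506713 was at 1.87, 1.77 and 1.63 CPM in EV, 1.41, 1.69 and 1.56 in SH2 and 2.42, 1.98 and 1.57 in SH3. In the blocked fit its averaged log2 fold change came to -0.0020 ± 0.17 (edgeR adjusted p 0.996). FBXO39, the nearest tested gene on the other side, was at 0.314 ± 0.0547 CPM in EV (SD, n = 3), had from 0 to 12 counts a library with 0 in the SH3 library 25, and had a blocked averaged log2 fold change of -0.52 ± 0.48 (edgeR adjusted p 0.572). The genes that followed ALOX12P2 most closely over the 9 libraries were ZBTB40, a zinc finger protein, with Pearson's r of 0.979, NCOR1, a nuclear receptor corepressor, at 0.973 and ZC3H13 at 0.972. In each of them all 6 knockdown libraries were below every EV library, as in ALOX12P2, which had been chosen on these groups. The r values rest on 9 libraries that share groups, numbers and depth, and on low counts of ALOX12P2.

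Of the cyclooxygenases, PTGS1, the constitutive enzyme, was abundant and PTGS2, the inducible enzyme, was scarce. PTGS1 was at 266, 284 and 247 CPM in EV, 247, 227 and 219 in SH2, and 260, 196 and 196 in SH3. Every knockdown library was below the EV library of its number, which held for 11.6% of the tested genes, and the 3 SH2 libraries were below all EV libraries by a narrow margin, which held for 7.8%. The SH3 library numbered 1 lay within the EV range. PTGS1 had an averaged log2 fold change of -0.25 ± 0.11 (edgeR adjusted p 0.744), and of -0.25 ± 0.08 in the blocked fit (edgeR adjusted p 0.112). PTGS1 passed in 1 of the 9 blocked fits that left out a library, at -0.31 ± 0.05 (edgeR adjusted p 0.0061). This was the fit without the SH3 library 1, which called 1755 of the 14199 tested genes. Over the 9 fits the edgeR adjusted p of PTGS1 reached 0.407. It also passed in DESeq2 with the block, which called more genes than edgeR did, at -0.25 (DESeq2 adjusted p 0.0429).

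PTGS2 was at 1.51, 1.60 and 1.37 CPM in EV, 1.61, 1.72 and 1.28 in SH2, and 1.60, 2.04 and 1.68 in SH3, from 37 to 66 counts a library. The groups overlapped, with an averaged log2 fold change of 0.15 ± 0.19 (edgeR adjusted p 0.965), or 0.14 ± 0.16 with the block (edgeR adjusted p 0.661). Per kilobase of transcript, PTGS1 stood at 53.0 ± 3.63 CPM per kb in EV and PTGS2 at 0.331 ± 0.0260 (SD, n = 3), which were the highest and the lowest levels of the set.

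**Figure D2:**
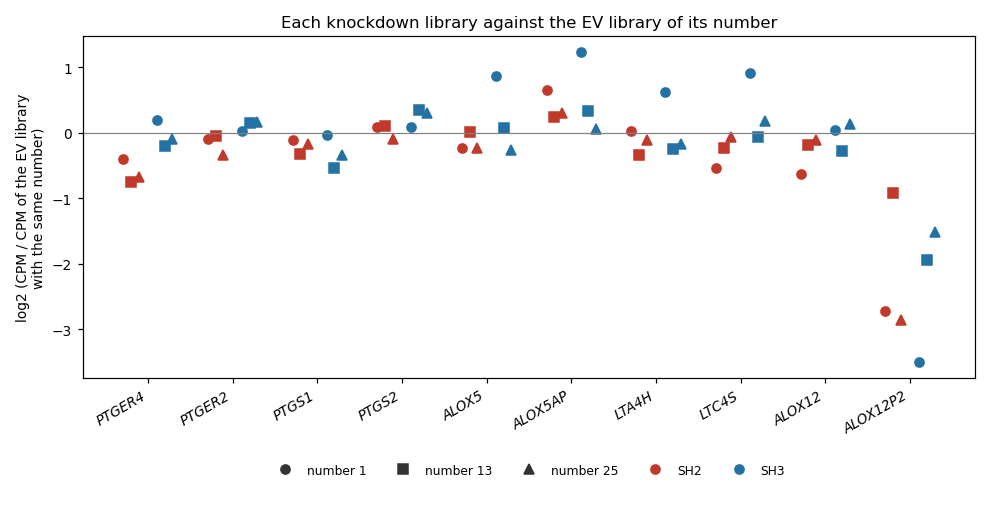
The log2 ratio of the CPM of each SH2 or SH3 library to that of the EV library with the same number, for the 10 genes. PTGER4 is below 0 in the 3 SH2 libraries and in the SH3 libraries 13 and 25, and above 0 in the SH3 library 1. PTGS1 and ALOX12P2 are below 0 in all 6 libraries and ALOX5AP is above 0 in all 6. The ALOX12P2 points rest on 4 to 17 counts in the knockdown libraries.

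The leukotriene genes gave no call in any knockdown contrast of either edgeR fit. ALOX5AP, the membrane protein that presents arachidonate to ALOX5, was at 21.2, 29.0 and 33.6 CPM in EV, 33.1, 34.3 and 41.4 in SH2, and 49.8, 36.5 and 35.1 in SH3. All 6 knockdown libraries were above the EV library of their number, which held for 11.6% of the tested genes, and 5 of 6 were above every EV library. ALOX5AP had an averaged log2 fold change of 0.46 ± 0.17 (edgeR adjusted p 0.704), and of 0.47 ± 0.15 in the blocked fit (edgeR adjusted p 0.130). It passed in 1 of the 9 blocked fits that left out a library, at 0.32 ± 0.08 (edgeR adjusted p 0.0207). This was again the fit without the SH3 library 1, which called 1755 genes. Over the 9 fits the edgeR adjusted p of ALOX5AP reached 0.607. ALOX5AP also passed in DESeq2 with the block, at 0.47 (DESeq2 adjusted p 0.0257).

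ALOX5 itself was at 45.3, 45.6 and 49.0 CPM in EV, 38.7, 45.7 and 41.5 in SH2, and 82.1, 47.9 and 40.7 in SH3. The SH3 library 1 was far above the other 8, which lay between 38.7 and 49.0 CPM. Its averaged log2 fold change was 0.07 ± 0.19 (edgeR adjusted p 0.986), or 0.05 ± 0.16 with the block (edgeR adjusted p 0.889), and it was between -0.14 and 0.20 when libraries were left out of the blocked fit in turn.

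LTA4H, the enzyme that makes leukotriene B, was at 137, 105 and 88.6 CPM in EV, 139, 82.1 and 82.0 in SH2, and 210, 87.9 and 78.3 in SH3. The library numbered 1 was the highest of every group, and highest of all in SH3. The averaged log2 fold change of LTA4H was 0.03 ± 0.32 without the number and -0.04 ± 0.12 in the blocked fit (adjusted p 0.995 and 0.883 in edgeR), so that its sign depended on the fit.

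LTC4S, which makes the first cysteinyl leukotriene, was at 2.59, 2.69 and 2.07 CPM in EV, 1.78, 2.29 and 1.98 in SH2, and 4.83, 2.56 and 2.33 in SH3. It was the only 1 of the 10 genes whose SH2 libraries were all below its SH3 libraries, which held for 2.23% of the tested genes, and 2.29 against 2.33 CPM left almost no gap. LTC4S had an averaged log2 fold change of 0.06 ± 0.26 (edgeR adjusted p 0.991), or 0.06 ± 0.21 with the block (edgeR adjusted p 0.904). The part of the platelet and mast cell markers given above in the levels of PTGS1, ALOX12 and LTC4S, enzymes those cells also use, was not tested.

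Per kilobase, the order of the levels in EV was PTGS1, LTA4H at 51.4 ± 11.5 CPM per kb, ALOX5AP at 32.2 ± 7.25, ALOX5 at 18.5 ± 0.822, PTGER4 at 12.7 ± 1.75, LTC4S at 3.05 ± 0.415, PTGER2 at 2.97 ± 0.699, ALOX12 at 1.57 ± 0.311, ALOX12P2 at 0.730 ± 0.216 and PTGS2 (SD, n = 3). The EV libraries of PTGS1 overlapped those of LTA4H, and those of LTC4S overlapped those of PTGER2. The other neighbours in this order did not overlap. Among the 10 genes, 5 had positive and 5 negative log2 fold changes for both shRNAs averaged, with a median of 0.00 beside 0.01 over all tested genes. Taken singly, SH2 had 2 positive and 8 negative values with a median of -0.18, and SH3 had 6 positive and 4 negative with a median of 0.14, beside 0.01 over all tested genes in both, and these contrasts share the EV libraries.

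The replicate number was compared in the same model, as a contrast on which the genes had not been chosen. LTA4H, PTGER2 and PTGER4 were higher in the libraries numbered 1 than in those numbered 13 and 25, by 0.88 ± 0.12, 0.53 ± 0.10 and 0.50 ± 0.07 on the log2 scale (edgeR adjusted p 0.0006, 0.0024 and 0.0008). Across all tested genes 24.1% were higher in this contrast, so that 3 of 10 was near the background. The other direction held 0 of the 10 and 22.2% of all tested genes. In each of the 3 the number 1 library was the highest of all 3 groups, as in 23.1% of tested genes. When 1 library was left out in turn, the values ranged from 0.63 to 1.06 for LTA4H, 0.47 to 0.59 for PTGER2 and 0.43 to 0.61 for PTGER4, all past the threshold. Between the numbers 25 and 13, 0 of the 10 genes were called by edgeR, against 5.87% of all tested genes, and 1 of the 10 had an unadjusted p under 0.05, beside 23.8% of all. Of the 85 tested genes in the wider lists described next, 34 were higher and 15 lower in number 1, and 4 were lower in 25 than in 13, as were 3.1% of all tested genes.

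**Figure D3:**
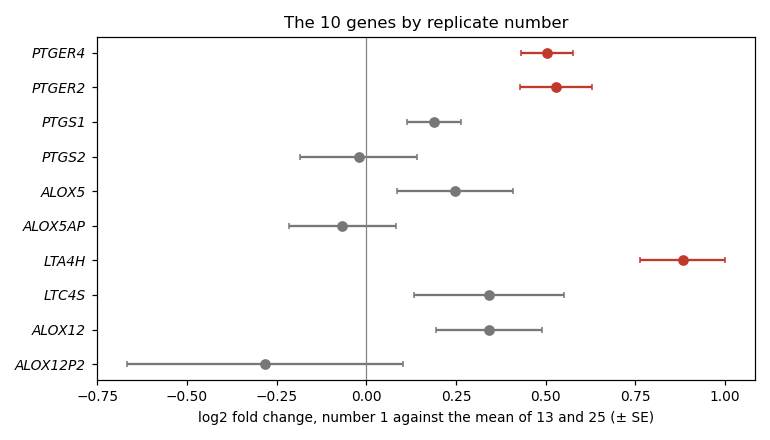
The log2 fold change (± SE) between libraries numbered 1 and the mean of those numbered 13 and 25, with the group in the model, for the 10 genes. LTA4H, PTGER2 and PTGER4, coloured red, passed the threshold, at 0.88, 0.53 and 0.50.

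The wider pathway was followed in 7 lists with 116 symbols, of which 85 were tested. Without the number, 0 of the 85 passed for both shRNAs averaged in edgeR, where 2 had an unadjusted p under 0.05 and DESeq2 called 0. With the block, 3 fell and 0 rose for both shRNAs averaged, beside 0.845% and 0.254% of all tested genes. SH2 alone had 1 lower call, beside 0.183% of all tested genes, and SH3 against SH2 had 1 higher call, beside 0.0634%. In each case this was PTGER4, which had been chosen on these groups, so these calls are no independent evidence about the lists. SH3 alone had 0 in edgeR, beside 0.416% of all tested genes, with 18 at an unadjusted p under 0.05, beside 18.7%. DESeq2 with the block, which called more genes than edgeR did, had 6 calls for SH3. The median log2 fold change of the 85 genes for both shRNAs averaged was -0.02 with the block, beside 0.01 over all tested genes.

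In the list for prostanoid synthesis and clearance, 8 of 14 genes were tested and 1 fell. This was HPGDS, the haematopoietic prostaglandin D synthase, at 6.68, 2.86 and 1.77 CPM in EV, 3.38, 0.972 and 1.14 in SH2, and 3.71, 1.48 and 1.38 in SH3. Each knockdown library was below the EV library of its number, while the range within a group exceeded the difference between groups. In log2 fold change HPGDS was at -0.92 ± 0.53 without the number (edgeR adjusted p 0.847) and -0.90 ± 0.16 with the block (edgeR adjusted p 0.0412). The most abundant genes of the list were PTGES3, a co-chaperone that also has prostaglandin E synthase activity, at 665 ± 82.4 CPM in EV, and ABCC4, a transporter that exports prostaglandins, at 193 ± 39.4 CPM (SD, n = 3). Neither was called (blocked edgeR adjusted p 0.299 and 0.337).

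The list of prostanoid receptors held 10 symbols, of which 9 were in the count tables and 6 were tested. Of these, 1 fell for both shRNAs averaged. PTGIR, the prostacyclin receptor, which also couples to the stimulatory G protein, was at 46.8, 45.4 and 38.2 CPM in EV, 39.4, 33.4 and 31.6 in SH2, and 39.9, 30.2 and 31.9 in SH3. Its blocked log2 fold change was -0.34 ± 0.07 (edgeR adjusted p 0.0488), with -0.32 for SH2 and -0.36 for SH3, and without the number it was -0.34 ± 0.12 (edgeR adjusted p 0.693). Whether PTGIR and PTGER4 differed in how they responded to SH3 was not tested. In the leukotriene and lipoxygenase enzymes 0 of 11 tested genes were called, and in the averaged contrast with the block the 11 had a median log2 fold change of 0.22, positive in 9. For SH2 it was -0.07, positive in 5 of 11, and for SH3 it was 0.35, positive in 10 of 11, beside 0.01 over all tested genes in each contrast. ALOX5, ALOX5AP, LTA4H, LTC4S and ALOX12, described above, are in this list. Against the EV library of the same number, SH3 in numbers 1, 13 and 25 stood at 181%, 105% and 83.0% for ALOX5. LTA4H was at 153%, 84.1% and 88.4%, and LTC4S at 187%, 95.4% and 113%, while MGST2 was at 117% ± 2.56 (SD, n = 3). The list without the SH3 library 1 was not tested. MGST2, a glutathione transferase able to make leukotriene C, was at 49.3 ± 5.51 CPM in EV and 58.5 ± 11.0 and 57.5 ± 5.39 CPM in SH2 and SH3 (SD, n = 3, blocked edgeR adjusted p 0.134).

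Of the leukotriene and other oxylipin receptors 0 of 6 tested genes were called, with CYSLTR1 and CYSLTR2, the cysteinyl leukotriene receptors, at blocked log2 fold changes of 0.045 and 0.03. Of the genes for arachidonate release and reacylation 0 of 16 were called, with MBOAT7, which returns arachidonate to phosphatidylinositol, at -0.03 and ACSL1, an acyl-CoA synthetase, at -0.05. Of the epoxygenases and hydrolases 0 of 2 were called, with CYP2U1 at -0.18 and EPHX1, the microsomal epoxide hydrolase, at -0.01.

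In the cyclic AMP pathway below the receptors, 36 of 40 genes were tested and 1 fell. AKAP13, a scaffold that anchors protein kinase A, was at 66.7, 59.6 and 45.5 CPM in EV, 55.8, 43.8 and 36.0 in SH2, and 55.1, 39.3 and 39.3 in SH3. All 6 knockdown libraries were below the EV library of their number, with a blocked log2 fold change of -0.36 ± 0.07 (edgeR adjusted p 0.0472) and -0.35 ± 0.17 without the number (edgeR adjusted p 0.794). Corrected for length and GC content it was -0.14 (edgeR adjusted p 0.407), while PTGIR still passed, at -0.37 (edgeR adjusted p 0.0449), and HPGDS, at -1.02, did not (edgeR adjusted p 0.0515). GNAS, the stimulatory G protein subunit, was at 1144 ± 48.3 CPM in EV and PRKAR1A, a regulatory subunit of protein kinase A, at 339 ± 19.7 (SD, n = 3), and neither was called (blocked edgeR adjusted p 0.459 and 0.693). Each of HPGDS, PTGIR and AKAP13 passed in only 1 of the 9 blocked fits that left out a library, the fit without the SH3 library 1.

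**Figure D4:**
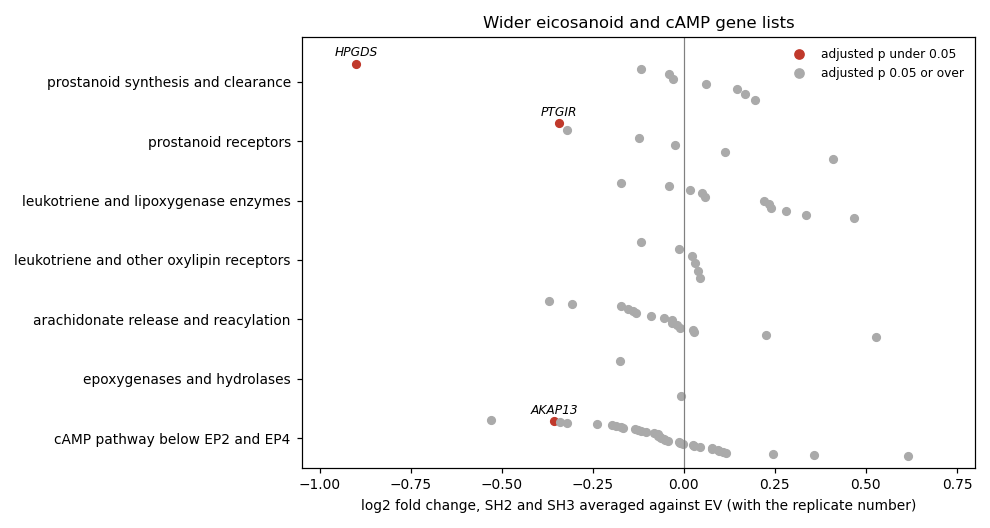
The log2 fold change of SH2 and SH3 averaged against EV, with the replicate number in the model, for each tested gene of the 7 wider lists, with the genes ordered by value within a list. HPGDS, PTGIR and AKAP13, coloured red, are the 3 genes past an adjusted p of 0.05, at -0.90, -0.34 and -0.36.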

How the data were processed

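The deposited files held whole-number counts per RefSeq transcript on hg19, not normalized, in 48104 rows per library. The submitters' processing notes name STAR, featureCounts and DESeq2 without roles or versions, and the study describes poly(A) selection, unstranded libraries and tests in Cuffdiff. The counts that the authors deposited give a read shared by isoforms to each of them, so for each symbol the transcript of highest total stands for the gene, and sense and antisense reads cannot be told apart.

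Genes were filtered with filterByExpr (minimum count 10, minimum total 15), scaled by TMM, and tested with the edgeR 4.0.16 quasi-likelihood F test in R 4.3.3, all 9 libraries in 1 fit, with Benjamini-Hochberg adjustment over all 14199 genes at 0.05. CPM uses the scaled library sizes, and a standard error is the log2 fold change divided by the square root of F. DESeq2 1.42.0, a fit blocked by replicate number, and a blocked fit with transcript length and GC correction over the 13395 genes with a known length were alternatives, as were other size factors, no filter, summed transcripts and leaving out each library. The labels give all groups the numbers 1, 13 and 25. Deviations from the group means correlated at 0.398 or more in each of the 9 same-numbered pairs (mean 0.598) and at a mean of -0.291 in the 18 others, so the numbers pair the libraries, and blocked values are printed where they change a call. The fits were tested on simulated data.

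Members and lists were chosen with earlier results of these data known. Named were the 10 genes, ASXL2, list genes past the threshold in a knockdown contrast, the 2 tested genes of each list with the highest EV level, the 3 genes most correlated with PTGER4 and with ALOX12P2 (log2 CPM, prior count 2), and the nearest tested neighbours of both. Marker genes, among them ITGA2B, were named outside this rule. For the contrasts of replicate numbers, list genes are given as counts. Coordinates are from GENCODE 44 lifted to GRCh37, and promoters from RefSeq on GRCh38.p14. Promoter letters were counted in the 250 bases before the start.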

Additional observations from a re-analysis of the deposited data

Results flagged for a closer look

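PTGER4 differed between the shRNAs. Its level was higher in SH3 than in SH2 by 0.57 ± 0.09 on the log2 scale when the replicate number was blocked (edgeR adjusted p 0.0476), and in 3 of 3 numbers. Without the block the difference was 0.57 ± 0.22 (edgeR adjusted p 0.998). When 1 library was left out of the blocked fit it passed in 4 of 9 cases, with values from 0.50 to 0.62 and adjusted p from 0.0166 to 0.445. It did not pass without the SH2 libraries 1, 13 or 25, the EV library 25 or the SH3 library 25. PTGER4 had been chosen with this result known.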

How the results depend on the processing

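Counts of calls moved with the replicate block, the tool, the length and GC correction and single libraries. With the replicate block, the pairing raised the calls from 0 to 156 for both shRNAs averaged, 40 for SH2, 59 for SH3 and 15 for SH3 against SH2, and the list calls to 3, 1, 0 and 1. With the block and the length and GC correction, the calls were 23, 3, 43 and 12, and 1 list gene passed for both shRNAs averaged. DESeq2 called 56, 25, 26 and 11 genes without the block and 622, 374, 474 and 152 with it, of which 6, 4, 6 and 4 were list genes. The targeted gene ASXL2 did not pass without the block for both, SH2 and SH3 (edgeR adjusted p 0.177, 0.808 and 0.612). ASXL2 kept its direction and passed with the block at -1.09, -1.04 and -1.13 for both, SH2 and SH3. It also passed with the correction at -0.91, -0.84 and -0.97, in DESeq2 at -1.07, -1.03 and -1.12, and in DESeq2 with the block at -1.09, -1.04 and -1.14. For SH2 it passed in 7 of the 9 blocked fits that left out a library.

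For both shRNAs averaged, the sign of LTA4H turned with the block (-0.040), with the block and correction (-0.11) and in DESeq2 with the block (-0.041), and that of LTC4S turned with the block and correction (-0.0015). The difference between SH3 and SH2 in ALOX12P2, 0.00 without the block, was -0.052 with it, -0.056 with the correction, -0.11 in DESeq2 with the block and -0.12 with summed transcripts. No pattern was tested for a cause. Other size factors, no filter on low counts and summed transcripts changed no call of the 10 genes. For the knockdown contrasts these were run without the block only, where 0 of the 10 genes were called. The blocked calls of PTGER4 and ALOX12P2 were not rerun with them.

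Leaving out 1 library at a time gave the ranges that follow, first for the unblocked and then for the blocked fit. Calls were 0 to 2 and 2 to 1755 for both shRNAs averaged, 0 to 0 and 0 to 1604 for SH2, 0 to 1 and 1 to 368 for SH3, and 0 to 0 and 0 to 257 for SH3 against SH2. List calls were 0 throughout in the unblocked fit, and 0 to 13, 0 to 10, 0 to 4 and 0 to 4 in the blocked fit. ASXL2 lay between -1.18 and -1.02 and between -1.16 and -1.0 for both averaged, between -1.08 and -0.95 and between -1.13 and -0.96 for SH2, and between -1.32 and -1.01 and between -1.27 and -1.054 for SH3. For both averaged, ALOX5 ranged from -0.12 to 0.17 and from -0.14 to 0.20, LTA4H from -0.27 to 0.22 and from -0.22 to 0.09, LTC4S from -0.14 to 0.16 and from -0.16 to 0.18, and PTGER2 from -0.16 to 0.18 and from -0.06 to 0.02. PTGER4 for SH3 ranged from -0.26 to 0.12 and from -0.15 to 0.05, and ALOX12P2 for SH3 against SH2 from -0.75 to 0.47 and from -0.69 to 0.65. Contrasts of numbers, which have the group in the model, gave 4813 to 6282 calls for number 1 and 50 to 2750 for number 25 against 13. A group left with 2 libraries shares its estimate of spread with the others. The exact test planned for genes below the filter gave no value, since all 10 passed. Counts of 4 to 17 limited ALOX12P2 and 37 to 66 limited PTGS2.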
